A study of Saccharomyces cerevisiae with 11 samples.

Results

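The 38 genes described here encode the DNA replication machinery of budding yeast. They were chosen by systematic name from textbook knowledge of the complexes, by a rule that uses no measured value, and they are 38 of 6834 listed features. The 22 origin factors are the 6 ORC genes, the 6 MCM2-7 genes, the loading factors CDC6 and TAH11, the firing factors CDC45, SLD2, SLD3 and DPB11, and the 4 GINS genes SLD5, PSF1, PSF2 and PSF3. The 16 fork enzymes are the genes of DNA polymerase α-primase, the polymerases δ and ε, the sliding clamp POL30, the single-strand binding protein RPA (RFA1 to RFA3) and the clamp loader RFC (RFC1 to RFC5).

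ORC marks replication origins through the cell cycle, and Cdc6 and Tah11 (Cdt1) load the MCM2-7 helicase onto it in G1 phase. At the start of S phase Cdc45, the SLD proteins, Dpb11 and GINS turn the loaded helicase into an active one, after which primase, the polymerases, PCNA and RFC copy the strands. Many of these genes are transcribed at the G1/S boundary through the MCB and SCB promoter elements, which the factors MBF and SBF bind. Abf1, ARS-binding factor 1, is a general regulatory factor that binds promoters and some origins. The comparisons ask how these genes were expressed when nuclear Abf1 was removed and when a construct with an altered disordered region took its place.

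All 11 libraries came from log-phase cultures, in medium without leucine, of 1 clone (A9) of an anchor-away strain labelled BY4741, in which rapamycin ties the tagged chromosomal Abf1 to the ribosomal protein Rpl13A and so takes it out of the nucleus. The strain carried a pRS315 plasmid with a LEU2 marker that encoded an EM shuffle, LS15 or NCS506 construct of Abf1 (2 libraries each), nothing (no Abf1, 3 libraries) or WT Abf1 (2 libraries). Independent transformants served as replicates, every culture received 8 µg/mL rapamycin, and the constructs lacked the first disordered region that WT Abf1 has. Per the paper, parts of the second disordered region are shuffled in EM shuffle and LS15, and NCS506 carries random point mutations in it. The paper scored EM shuffle as inviable, and LS15 and NCS506 as viable with very slow growth. Rapamycin was given for 1.25 h, except that 1 of the WT Abf1 libraries was treated for 1 h and carries another batch date, so that in WT Abf1 an effect of batch, of time or of replicate cannot be told apart. Total counts were 920044 to 2195476 per library, and protein-coding genes held 68.7% to 83.2% of them, the lowest and the highest share both in WT Abf1. BY4741 is a MATa strain without MET17. The libraries held 131 to 563 counts of MET17. Of the MATα genes, MF(ALPHA)1 (α-factor) had 241 to 1209 counts, STE3 177 to 638 and MF(ALPHA)2 8 to 71. Of the MATa genes, MFA1 (a-factor) had 0 to 10 counts, MFA2 0 to 4, BAR1 0 to 9, STE2 1 to 23 and STE6 20 to 67. The counts of MF(ALPHA)1, STE3 and MET17 go against the strain label in every condition, whereas STE6 was also present in every library.

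An upstream window of 400 bp before each coding start was searched for 3 elements on both strands, because Abf1 and the G1/S factors would act there. The Abf1 consensus had a match in 3 of 38 windows (7.90%), against 16.1% of 5866 protein-coding genes. The MCB, ACGCGT, was found in 15 of 38 (39.5%), against 4.57% of all these genes, and in 10 of the fork enzymes and 5 of the origin factors. The SCB, searched as CACGAAA or CGCGAAA, was found in 9 of 38 (23.7%), against 11%. With a window of 250 bp the counts were 2, 14 and 7 of 38. These shares are counts of letters in windows and were not tested. The sequences below are those of the 3 Abf1 matches and of the MCBs and SCBs of the members whose values are given in full for every library, with the element in capitals, from the RefSeq R64 genome. A match does not show that a factor binds there.
POL12, Abf1 consensus, chrII:153853-153865, minus strand: tcatgttcATCGCCTCAAACGaatagaga
RFA2, Abf1 consensus, chrXIV:48152-48164, plus strand: agataattATCGCCATATACGaaacgcgt
TAH11, Abf1 consensus, chrX:521894-521906, minus strand: aattgtatATCACCCACAACGgcagagct
POL12, MCB, chrII:153804-153809, plus strand: ctggtgagACGCGTcacggtaa
POL12, MCB, chrII:153827-153832, plus strand: aaaaaattACGCGTctaccacg
RFA2, MCB, chrXIV:48167-48172, plus strand: tatacgaaACGCGTtaggaaac
RFA2, MCB, chrXIV:48179-48184, plus strand: gttaggaaACGCGTtctttcct
RFA1, MCB, chrI:158749-158754, plus strand: gttagttcACGCGTcttttgtc
RFA1, MCB, chrI:158779-158784, plus strand: taatttttACGCGTgacatttt
POL3, MCB, chrIV:276706-276711, plus strand: ttcgtattACGCGTaacttttt
POL30, MCB, chrII:425956-425961, plus strand: aaaaagttACGCGTttcgcgtt
POL30, SCB, chrII:425961-425967, minus strand: caccaaaaCGCGAAAcgcgtaac
CDC6, MCB, chrX:69134-69139, plus strand: gaggcctcACGCGTcggagttt
SLD2, MCB, chrXI:234317-234322, plus strand: tcacgtttACGCGTatggtgaa
PSF1, SCB, chrIV:473064-473070, plus strand: cgttacaaCGCGAAAattgtaat
MCM7, SCB, chrII:625612-625618, plus strand: tcttttttCACGAAAgtgagata
The Abf1 match of POL12 lies 243 bp upstream of its coding start and inside the 3′ end of the coding sequence of STU1, the neighbouring gene on the same strand. The match of RFA2 lies 123 bp upstream, and its first MCB follows after 2 bases. The match of TAH11 lies 142 bp upstream, between TAH11 and the divergent gene SSC1. The MCB of POL30 shares 1 base with its SCB on the other strand. The windows of MCM2, ORC3 and RFC3 held none of the 3 elements. Over all members the MCBs lay 80 to 320 bp upstream, with a median of 160.0 bp.

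The mean level of a member differed between its highest and lowest condition by a ratio of 1.13 for RFC5 to 2.09 for MCM2, with a median of 1.38, whereas the members spanned a ratio of 10.6 among themselves. Per kilobase of gene, as TMM-normalized CPM (the counts scaled to a common library size) averaged over the 11 libraries, RFA3 (YJL173C), the small subunit of RPA, was highest at 97.6, and POL12 (YBL035C), the B subunit of polymerase α, was lowest at 9.21. RPA subunits stood at 48.5 to 97.6 and the sliding clamp POL30 (YBR088C) at 61.0. The clamp loader genes lay between 28.8 for RFC4 (YOL094C) and 62.8 for RFC2 (YJR068W). The MCM2-7 genes, whose products form 1 ring, ranged from 20.1 for MCM2 (YBL023C) to 51.9 for MCM3 (YEL032W), a ratio of 2.58. The ORC genes ranged from 11.4 for ORC3 (YLL004W) to 37.7 for ORC2 (YBR060C), a ratio of 3.31. Of the loading factors, TAH11 (YJR046W) stood at 48.7 and CDC6 (YJL194W) at 13.3. The 4 firing factors were low, from 12.2 for CDC45 (YLR103C) to 19.7 for SLD2 (YKL108W). The genes of 1 complex were therefore not at 1 level. The SD of log2 CPM within conditions was 0.11 to 0.58 over the members, with a median of 0.23, beside a median of 0.24 over 4086 features of like count.

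**Figure D1:**
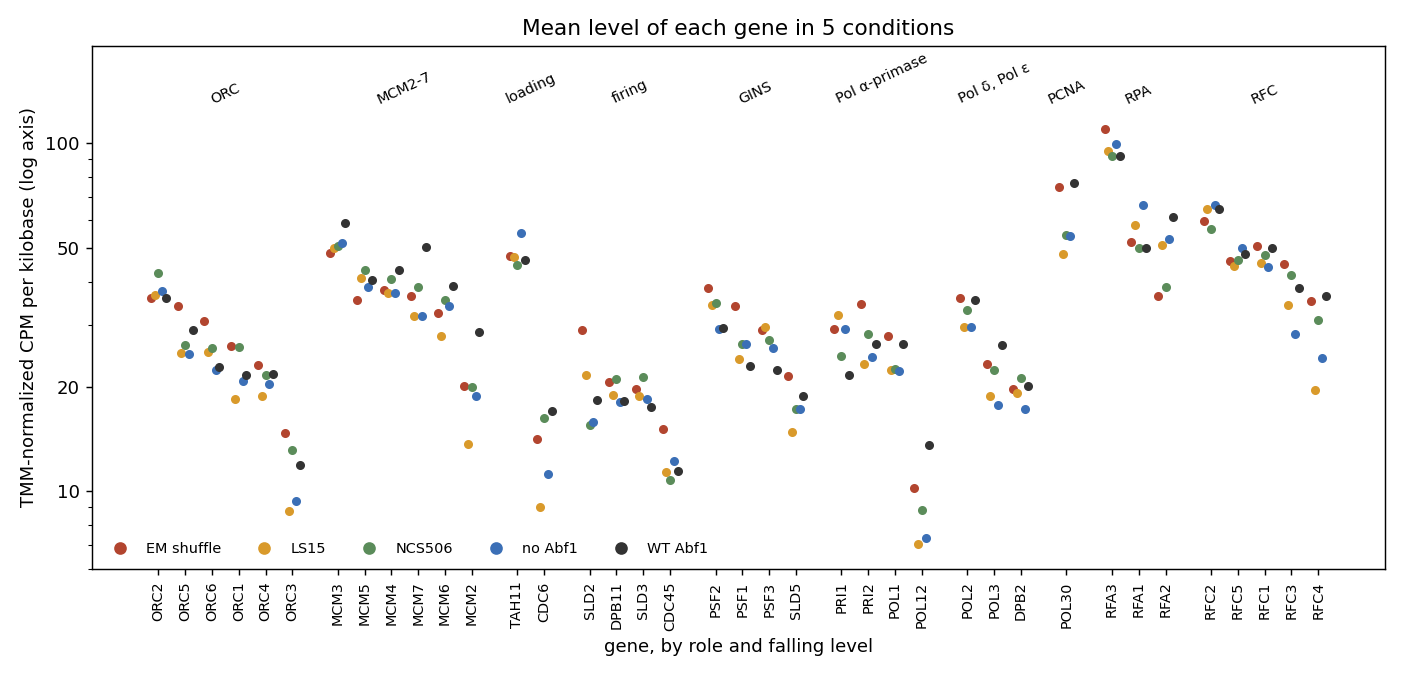
Mean TMM-normalized CPM per kilobase (log axis) of each of the 38 genes in EM shuffle, LS15, NCS506, no Abf1 and WT Abf1, grouped by role and ordered by level within it. RFA3 is highest at 97.6 and POL12 lowest at 9.21 on average over the 11 libraries, and the 5 points of a gene span a ratio of at most 2.09.

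Loss of Abf1 left most replication genes within the spread of the libraries. In no Abf1 against WT Abf1, 1 of 38 members passed the test (edgeR quasi-likelihood, Benjamini-Hochberg adjusted p under 0.05), namely MCM7, which fell. That is 2.63% of the members, beside 23.4% of the 5456 features tested, 13.7% called lower, and 21.3% of the features with mean counts in the range of the members. At an unadjusted p under 0.05 there were 5 members. Every feature called at the adjusted threshold is also under the unadjusted one, so at least 23.4% of all features were there. The median log2 fold change of the members was −0.16, with 27 of 38 below 0, whereas over all tested features it was 0.015 with 2661 of 5456 below 0. The intervals set the limit of this statement. For 30 of 38 members the 95% confidence interval of the log2 fold change lay within −1 and 1, and changes smaller than their intervals were not detectable at mean counts of 23.6 to 329.7 per library. In RNA from a whole culture, fewer cells in the phase that transcribes a gene and less RNA per cell cannot be told apart.

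Without groups being averaged, all 3 no Abf1 libraries lay below both WT Abf1 libraries for 9 members, above both for 2, and overlapped for 27. Over all features 28% lay below both and 28.6% above both, so the 9 members below both were no larger a share than that of the genome, and the 2 above both, RFA1 and TAH11, were a smaller one. The count of members that passed was 3 without the WT Abf1 library of 1 h, beside 19.8% of all features, in a comparison within 1 batch and time. It was 0 without the other WT Abf1 library, beside 10.2% of all features. With either one left out a single WT Abf1 library remains, which the fit assumes to vary like the other conditions. The count was also 0 without no Abf1 replicate 2, beside 12.7%, and 3 without either EM shuffle library, which enters through the shared spread, beside 30.2%. In a fit of only these 5 libraries it was 5 of 38, beside 32.7% of all features. MCM7, MCM2, POL3 and POL30 were the 4 lower and RFA1 the 1 higher.

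**Figure D2:**
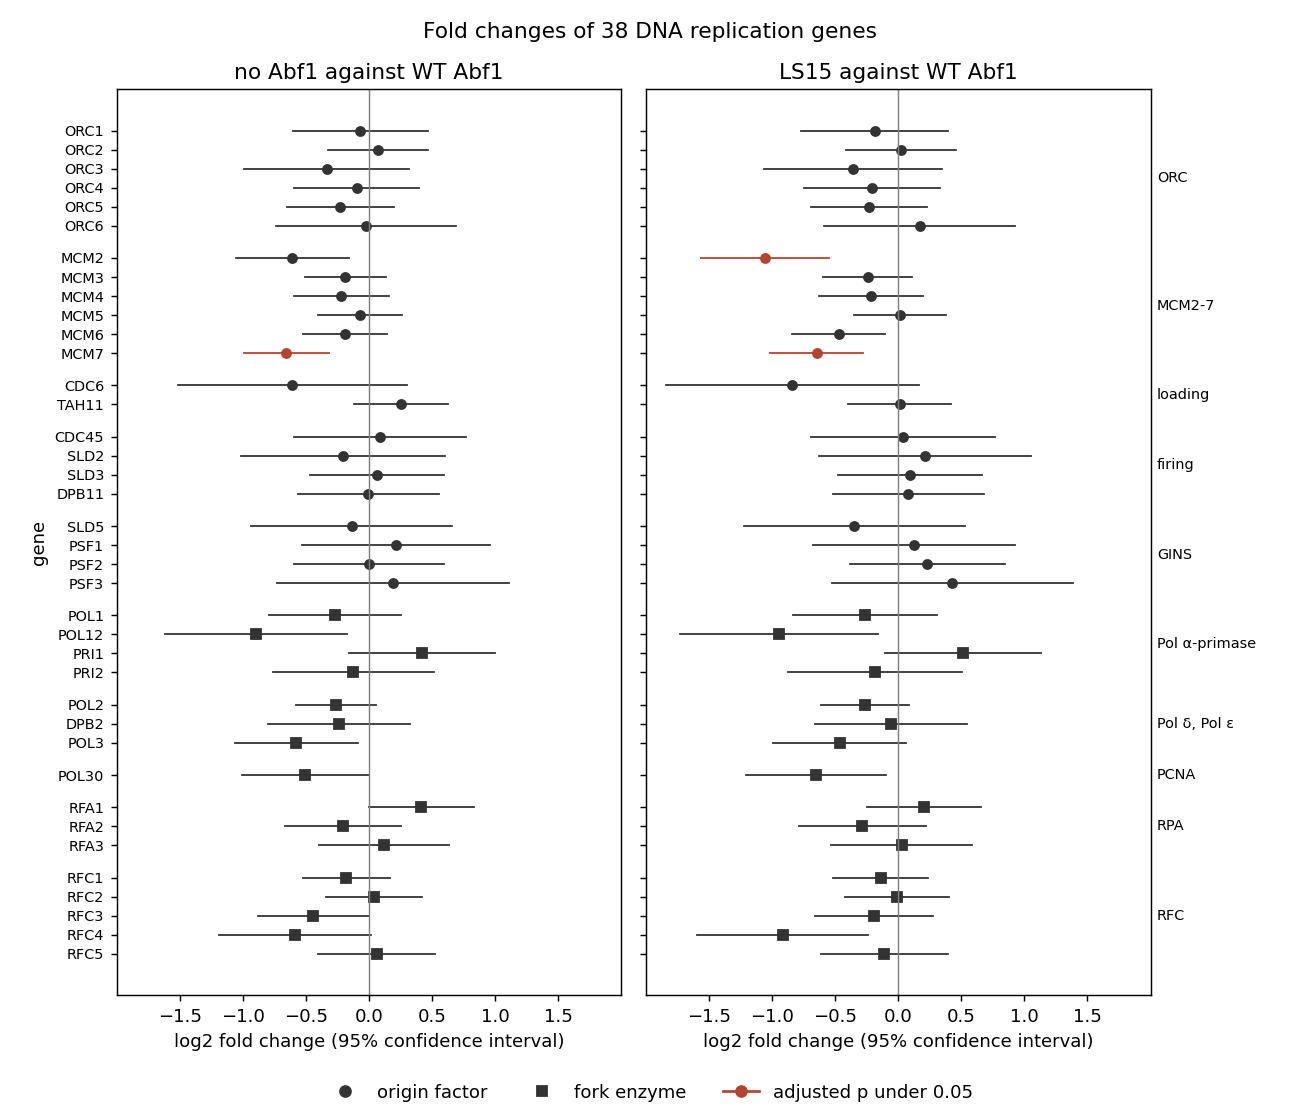
Log2 fold change of each gene with its 95% confidence interval in no Abf1 against WT Abf1 (left) and in LS15 against WT Abf1 (right), from the same fit of 11 libraries. Circles are origin factors, squares fork enzymes, and red marks an adjusted p under 0.05, which MCM7 reached in both comparisons and MCM2 in LS15.

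Of the origin factors, the helicase genes MCM7 and MCM2 passed the test in a comparison with WT Abf1, and MCM3 to MCM6 passed in none. MCM7 (YBR202W, chrII:625772-628309, plus strand), a helicase subunit, had 88.6 and 96.7 CPM in EM shuffle, 75.4 and 85.9 in LS15, 89.6 and 106 in NCS506, 89.2, 74.9 and 78.1 in no Abf1, and 128 and 126 in WT Abf1. Every library without WT Abf1 was below both WT Abf1 libraries. The share of all features with this order was not counted, here or for MCM2 below. Against WT Abf1 the log2 fold change of MCM7 was −0.66 in no Abf1 (SE 0.15, adjusted p = 0.0109) and −0.65 in LS15 (SE 0.17, adjusted p = 0.0333). It was −0.46 in EM shuffle (adjusted p = 0.161) and −0.38 in NCS506 (adjusted p = 0.226), which did not pass. The call in no Abf1 was lost without WT Abf1 replicate 2 (−0.67, adjusted p = 0.056) or no Abf1 replicate 2 (−0.605, adjusted p = 0.0507), and held without the WT Abf1 library of 1 h.

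MCM2 (YBL023C, chrII:174920-177526, minus strand), another subunit of the ring, had 45.6 and 59.4 CPM in EM shuffle, 34.9 and 36.6 in LS15, 46.2 and 57.7 in NCS506, 41.1, 51.5 and 54.5 in no Abf1, and 65.5 and 83.8 in WT Abf1. Both LS15 libraries were the lowest of the 11, and no library of another condition reached WT Abf1. MCM2 fell in LS15 by 1.06 on the log2 scale (SE 0.23, adjusted p = 0.0215), whereas in no Abf1 it was at −0.61 (SE 0.21, adjusted p = 0.0509), just outside the threshold. With the WT Abf1 library of 1 h left out it was at −0.77 (adjusted p = 0.0461), set against the single WT Abf1 library of 83.8 CPM, the higher one, with the spread taken from the other conditions. The difference of LS15 from the other conditions was tested itself. It was −0.55 against EM shuffle (adjusted p = 0.166), −0.53 against NCS506 (adjusted p = 0.669) and −0.45 against no Abf1 (adjusted p = 0.833), and none passed.

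All 6 MCM2-7 genes were below 0 in no Abf1, with a median of −0.21, and MCM3, MCM4 (YPR019W), MCM5 (YLR274W) and MCM6 (YGL201C) lay between −0.22 and −0.07 without passing. The median of the 6 genes relative to the WT Abf1 mean was −0.305 and −0.24 in the EM shuffle libraries, −0.34 and −0.41 in LS15, −0.23 and −0.20 in NCS506, −0.05, −0.33 and −0.33 in no Abf1, and −0.02 and 0.02 in WT Abf1. All 9 libraries without WT Abf1 were thus below both WT Abf1 libraries. The nearest was no Abf1 replicate 1, at −0.047 beside −0.023 in WT Abf1 replicate 1. The WT Abf1 values lie around 0 because they are taken relative to their own mean. How often other groups of genes show this order was not counted. On the authors' TPM scale the median of all features itself shifted, by 0.60 in EM shuffle and 0.56 in NCS506 with a pseudocount of 1, and relative to it the helicase median was −0.15 in EM shuffle, −0.18 in LS15, −0.03 in NCS506 and −0.10 in no Abf1.

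The other origin factors did not pass in any comparison. The 6 ORC genes, which include ORC1 (YML065W), ORC4 (YPR162C), ORC5 (YNL261W) and ORC6 (YHR118C), lay between −0.34 and 0.07 in no Abf1 with a median of −0.08. ORC3 had the largest difference, with 24.4 and 30.0 CPM in EM shuffle, 11.2 and 21.3 in LS15, 27.9 and 20.6 in NCS506, 16.0, 18.7 and 17.5 in no Abf1, and 21.0 and 23.0 in WT Abf1. The no Abf1 libraries were below both WT Abf1 libraries, at −0.34 (SE 0.30, adjusted p = 0.454). The licensing factor CDC6 had 27.5 and 16.3 CPM in EM shuffle, 10.1 and 17.7 in LS15, 23.7 and 26.5 in NCS506, 27.1, 7.49 and 17.5 in no Abf1, and 26.0 and 26.5 in WT Abf1. Its 3 no Abf1 libraries, with 27, 8 and 17 counts, spread from above both WT Abf1 libraries to far below them, and its log2 fold change was −0.61 with an interval of −1.52 to 0.30. TAH11, its partner in loading, carries an Abf1 match and had 83.2 and 88.3 CPM in EM shuffle, 100.1 and 71.3 in LS15, 75.4 and 87.2 in NCS506, 104, 94.6 and 101 in no Abf1, and 84.8 and 83.1 in WT Abf1. The no Abf1 libraries were all higher, at 0.25 (SE 0.17, adjusted p = 0.318).

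The firing factors CDC45, SLD2, SLD3 (YGL113W) and DPB11 (YJL090C) lay between −0.21 and 0.09 in no Abf1. SLD2, which a cyclin-dependent kinase phosphorylates to start origins, had 27.0 and 52.0 CPM in EM shuffle, 32.6 and 26.2 in LS15, 16.2 and 25.9 in NCS506, 20.1, 28.1 and 16.4 in no Abf1, and 21.8 and 27.9 in WT Abf1. Its high value rested on 1 EM shuffle library, and the groups overlapped in no Abf1 (−0.21, adjusted p = 0.725). The GINS genes SLD5 (YDR489W), PSF1 (YDR013W), PSF2 (YJL072C) and PSF3 (YOL146W) lay between −0.14 and 0.21 in no Abf1. PSF1 had 24.4 and 18.4 CPM in EM shuffle, 11.2 and 18.9 in LS15, 16.7 and 16.5 in NCS506, 15.0, 22.5 and 12.3 in no Abf1, and 13.4 and 15.4 in WT Abf1, so that no Abf1 overlapped WT Abf1. PSF3 had the lowest mean count of all members, 23.6 per library, and an interval from −0.73 to 1.11.

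Among the fork enzymes none passed in no Abf1 in the fit of 11 libraries, although POL12 had the largest log2 fold change of all members. In the edgeR fit of only the no Abf1 and WT Abf1 libraries POL3 (−0.595, adjusted p = 0.0375), POL30 (−0.519, adjusted p = 0.0429) and RFA1 (0.399, adjusted p = 0.0441) passed. POL12 (chrII:151493-153610, minus strand) had 16.4 and 26.8 CPM in EM shuffle, 14.6 and 15.2 in LS15, 17.9 and 19.4 in NCS506, 13.0, 13.1 and 20.6 in no Abf1, and 21.8 and 35.6 in WT Abf1. The no Abf1 libraries lay below both WT Abf1 libraries, which differed widely between themselves, and the log2 fold change was −0.90 (SE 0.33, adjusted p = 0.0684). With the WT Abf1 library of 1 h left out it was −1.20 (adjusted p = 0.04), set against the single WT Abf1 library of 35.6 CPM, the higher one, with the spread taken from the other conditions. STU1, in whose coding sequence its Abf1 match lies, was at −0.11 (adjusted p = 0.639). The rest of the complex, POL1 (YNL102W), the catalytic subunit, and the primase subunits PRI1 (YIR008C) and PRI2 (YKL045W), stood at −0.27 (POL1), 0.42 (PRI1) and −0.13 (PRI2).

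POL3 (YDL102W), the catalytic subunit of polymerase δ, had 69.1 and 84.1 CPM in EM shuffle, 50.6 and 73.1 in LS15, 63.3 and 83.7 in NCS506, 65.2, 49.6 and 60.7 in no Abf1, and 74.7 and 99.1 in WT Abf1. All 3 no Abf1 libraries were below WT Abf1, at −0.58 (SE 0.22, adjusted p = 0.0819). POL2 (YNL262W) and DPB2 (YPR175W), of polymerase ε, were at −0.26 and −0.24. The clamp POL30 had 44.3 and 72.0 CPM in EM shuffle, 32.6 and 42.1 in LS15, 46.7 and 37.7 in NCS506, 39.1, 43.1 and 44.2 in no Abf1, and 59.6 and 60.0 in WT Abf1. The LS15, NCS506 and no Abf1 libraries were all below WT Abf1, whereas EM shuffle replicate 2 was above it. In no Abf1 POL30 stood at −0.50 (SE 0.23, adjusted p = 0.136).

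**Figure D3:**
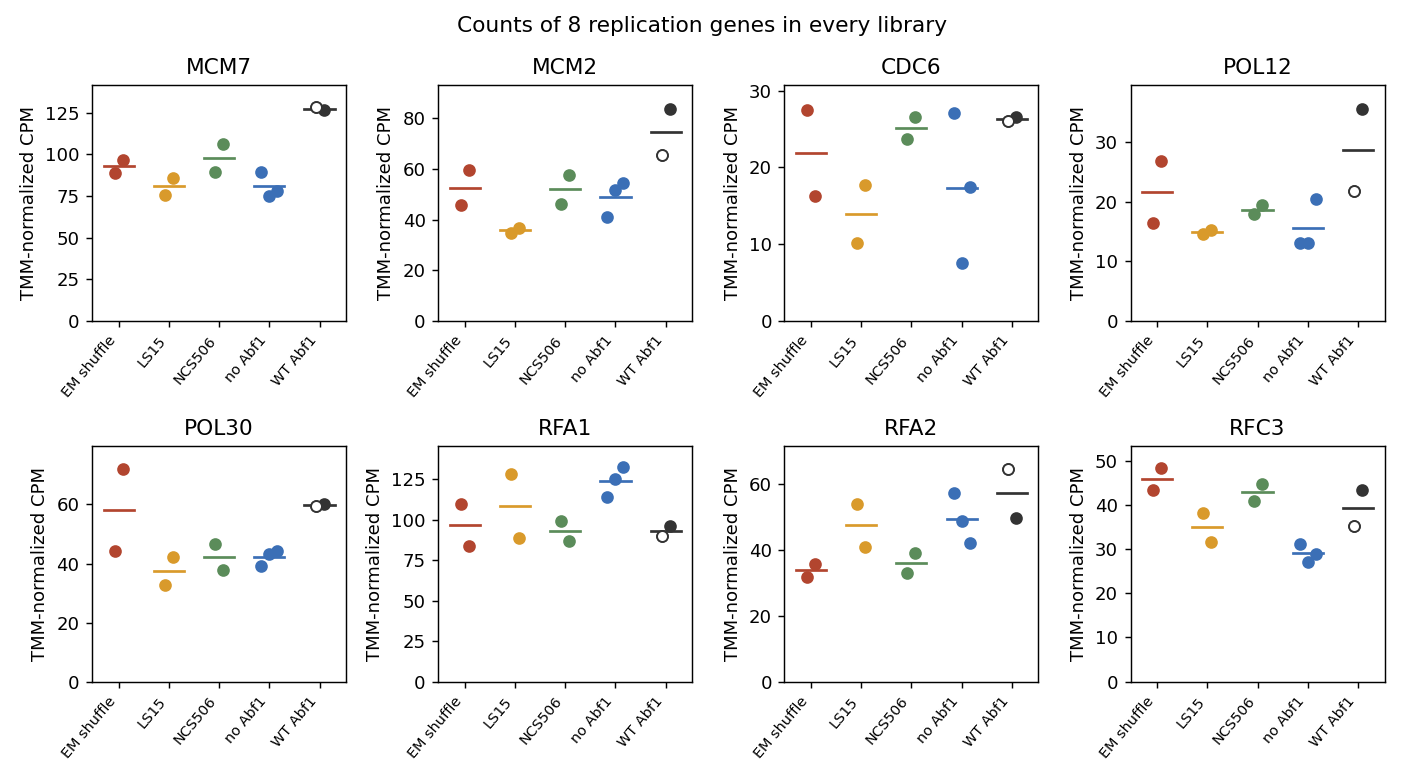
TMM-normalized CPM of 8 members in every library (points) with the mean of each condition (line). The open point is the WT Abf1 library of 1 h. For MCM7 and MCM2 all 9 libraries without WT Abf1 lie below both WT Abf1 libraries, whereas CDC6 ranges from 7.49 to 27.1 within no Abf1 alone.

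RPA covers single-stranded DNA at the fork, and none of its 3 genes passed in a comparison in the fit of 11 libraries. RFA1 (YAR007C), the large subunit, had 110 and 84.1 CPM in EM shuffle, 128 and 89.0 in LS15, 99.6 and 87.2 in NCS506, 114, 126 and 133 in no Abf1, and 89.8 and 96.3 in WT Abf1. The no Abf1 libraries were above both WT Abf1 libraries, at 0.41 (SE 0.19, adjusted p = 0.136). RFA2 (YNL312W, chrXIV:48287-49216, plus strand), the middle subunit, which carries an Abf1 match, had 31.9 and 35.7 CPM in EM shuffle, 54.0 and 40.8 in LS15, 32.9 and 38.9 in NCS506, 57.2, 48.7 and 42.2 in no Abf1, and 64.6 and 49.6 in WT Abf1. The 4 libraries of EM shuffle and NCS506 were the lowest of the 11. The share of all features with such an order was not counted, here or for RFC3 below. The no Abf1 libraries overlapped those of WT Abf1. Against WT Abf1 RFA2 stood at −0.75 in EM shuffle (SE 0.23, adjusted p = 0.106), −0.67 in NCS506 (adjusted p = 0.147) and −0.20 in no Abf1 (adjusted p = 0.526), and EM shuffle against no Abf1 gave −0.55 (adjusted p = 0.0819). None of these passed, and on the TPM scale, where all features shifted upward in EM shuffle and NCS506, the levels are not comparable without that shift. RFA3 was at 0.12 in no Abf1.

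The 3 members with an Abf1 match therefore stood at −0.90 (POL12), −0.20 (RFA2) and 0.25 (TAH11) in no Abf1, none past the threshold. Of 905 tested genes with a match, 410 were called lower and 34 higher, with a median of −0.60. The genes next to the matches of TAH11 and RFA2 were the divergent SSC1, a mitochondrial Hsp70, at 0.34 (adjusted p = 0.158), and the divergent EMW1 at −0.93 (adjusted p = 0.0538). The 15 members with an MCB had a median of −0.24 in no Abf1 with 12 of 15 below 0, and the 23 without one had a median of −0.07. Of the 15, 10 are fork enzymes and 5 are origin factors, and POL12 and RFA2 also hold an Abf1 match. The split by MCB thus overlaps that into origin factors and fork enzymes. For 236 other genes with an MCB the median was −0.05. These medians are descriptions of lists.

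The clamp loader held the member that passed between a construct and no Abf1. RFC3 (YNL290W, chrXIV:86218-87240, plus strand), a small RFC subunit, had 43.4 and 48.4 CPM in EM shuffle, 38.2 and 31.7 in LS15, 40.8 and 44.8 in NCS506, 31.1, 27.2 and 28.8 in no Abf1, and 35.2 and 43.3 in WT Abf1. The no Abf1 libraries were the lowest 3 of the 11. RFC3 was higher in EM shuffle than in no Abf1 by 0.66 (SE 0.19, adjusted p = 0.0286), the only 1 of 38 members called in that comparison, in which 24% of all features were called. NCS506 against no Abf1 gave 0.56 (adjusted p = 0.138) and no Abf1 against WT Abf1 −0.44 (adjusted p = 0.131). The call was lost without EM shuffle replicate 2 (adjusted p = 0.131), without any 1 of the no Abf1 libraries (adjusted p = 0.0576 to 0.0941) and in DESeq2 (adjusted p = 0.103), whereas 4 members were called without EM shuffle replicate 1, beside 31.2% of all features. RFC1 (YOR217W), RFC2 and RFC5 (YBR087W) lay between −0.18 and 0.06 in no Abf1, and RFC4 was at −0.59 (adjusted p = 0.144).

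The constructs were compared with WT Abf1 in the same fit and share its 2 libraries. In LS15, 2 of 38 members passed, MCM2 and MCM7, both lower, beside 11.2% of all features. Both LS15 libraries lay below both WT Abf1 libraries for 14 members, beside 27.5% of all features, and above both for 0, beside 29.2%. The median was −0.19 with 24 of 38 below 0. No member passed without LS15 replicate 1 (0.0542% of all features), LS15 replicate 2 (9.18%) or WT Abf1 replicate 2 (2.29%), or in the fit of LS15 and WT Abf1 alone (0.0188%). MCM2 alone passed without the WT Abf1 library of 1 h (5.9%) or any 1 of the no Abf1 libraries (5.08% to 5.81%), and 3 members passed without either EM shuffle library (19.6% and 19.7%). On the TPM scale the LS15 median turned to 0.003, which is −0.09 relative to the median of all features there. In EM shuffle and in NCS506 0 of 38 passed in edgeR and 0 in DESeq2. Of all features, edgeR called 2.24% in EM shuffle and 0.587% in NCS506, and DESeq2 3.56% and 3.52%. In edgeR 3 members each had an unadjusted p under 0.05, and in DESeq2 2 in EM shuffle and 1 in NCS506. The medians of the members were 0.045 in EM shuffle and −0.06 in NCS506. In limma on log2(TPM + 1) 25 members were called in EM shuffle and 19 in NCS506, all of them higher. The TPM of the listed features summed to 11.6% to 14.1% of the full TPM scale in these 4 libraries and to 8.18% to 9.76% in the other 7, and with the members 55.2% of all features were called in EM shuffle and 48.7% in NCS506.

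By role, the constructs differed from WT Abf1 as follows. The ORC median was 0.25 in EM shuffle, −0.20 in LS15 and 0.16 in NCS506, and no ORC gene passed. The firing factors had medians of 0.30 in EM shuffle, 0.08 in LS15 and 0.08 in NCS506, and the GINS genes of 0.37 in EM shuffle, 0.18 in LS15 and 0.22 in NCS506, again with no gene past the threshold. In EM shuffle all 8 of these genes were above 0. The helicase was the role with the lowest median among the origin factors in EM shuffle and NCS506, at −0.27 and −0.18. In LS15 the helicase median was −0.36. RFC4 and MCM6 were named after their values were seen, because they came close to the threshold in LS15. RFC4 had 20.2 and 17.7 CPM in LS15 and 29.4 and 41.2 in WT Abf1, and its log2 fold change was −0.92 (SE 0.31, adjusted p = 0.0746). MCM6 had 85.5 and 85.3 CPM in LS15 and 110 and 127 in WT Abf1, at −0.47 (SE 0.17, adjusted p = 0.0882). Both LS15 libraries lay below both WT Abf1 libraries for each gene. In EM shuffle RFC4 was at −0.05 and MCM6 at −0.25, and LS15 against EM shuffle gave −0.87 for RFC4 (adjusted p = 0.103) and −0.22 for MCM6 (adjusted p = 0.433), neither past the threshold. PRI1, the catalytic primase subunit, was above 0 in all 4 comparisons with WT Abf1, at 0.43 in EM shuffle, 0.51 in LS15, 0.16 in NCS506 and 0.42 in no Abf1, with adjusted p of 0.439, 0.26, 0.787 and 0.278. The 4 comparisons share the WT Abf1 libraries, at 21.8 CPM in the library of 1 h and 31.4 in the other. PRI1 had 35.9 and 36.3 CPM in EM shuffle, 48.4 and 30.5 in LS15, and 29.6 and 30.6 in NCS506. In no Abf1 it had 29.1, 37.5 and 41.1, so that NCS506, LS15 and no Abf1 overlapped WT Abf1.

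Against no Abf1, whose 3 libraries these comparisons share, EM shuffle had 29 of 38 members above 0 with a median of 0.20, beside 0.03 over all features. NCS506 had 27 above 0 with a median of 0.10, and LS15 had 15 above 0 with a median of −0.05. Relative to the shift of all features the EM shuffle median was 0.17, and on the TPM scale it was −0.01 with a pseudocount of 1 and 0.12 with 0.1. In NCS506 0 members passed in edgeR, beside 3.19% of all features, and 0 in DESeq2, beside 4.78%. At an unadjusted p under 0.05 there were 3 members in edgeR and 0 in DESeq2. In LS15 0 passed by either tool and 0 had an unadjusted p under 0.05. Of all features, 0% were called in edgeR and 0.0183% in DESeq2. Between constructs, 5.5% of all features were called in LS15 against EM shuffle and 0% in LS15 against NCS506. None of the members was among them in edgeR, with 4 members against EM shuffle and 2 against NCS506 at an unadjusted p under 0.05. For the constructs, the share of all features at that unadjusted threshold is not given here.

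As changes from WT Abf1, the medians of the origin factors and of the fork enzymes lay close to each other, whereas their absolute levels differed. In no Abf1 the median log2 fold change was −0.08 over the 22 origin factors and −0.22 over the 16 fork enzymes. Per library, relative to the WT Abf1 mean, the origin median was 0.07 and 0.13 in EM shuffle, −0.17 and −0.05 in LS15, −0.02 and 0.03 in NCS506, 0.03, −0.22 and −0.21 in no Abf1, and −0.06 and 0.06 in WT Abf1. The fork median was −0.02 and 0.01 in EM shuffle, −0.15 and −0.19 in LS15, −0.10 and −0.06 in NCS506, −0.11, −0.27 and −0.27 in no Abf1, and −0.12 and 0.12 in WT Abf1. The EM shuffle libraries were the highest for the origin factors, and for both classes 2 of the 3 no Abf1 libraries were the lowest. The difference of the relative medians, origin minus fork, was 0.06 to 0.14 in no Abf1 and −0.06 and 0.06 in WT Abf1, a range of −0.06 to 0.14 over all libraries. In absolute log2 CPM, origin minus fork was −0.28 on average, from −0.54 to 0.02. Per kilobase it was −0.48 on average, from −0.755 to −0.26, and so below 0 in every library.

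**Figure D4:**
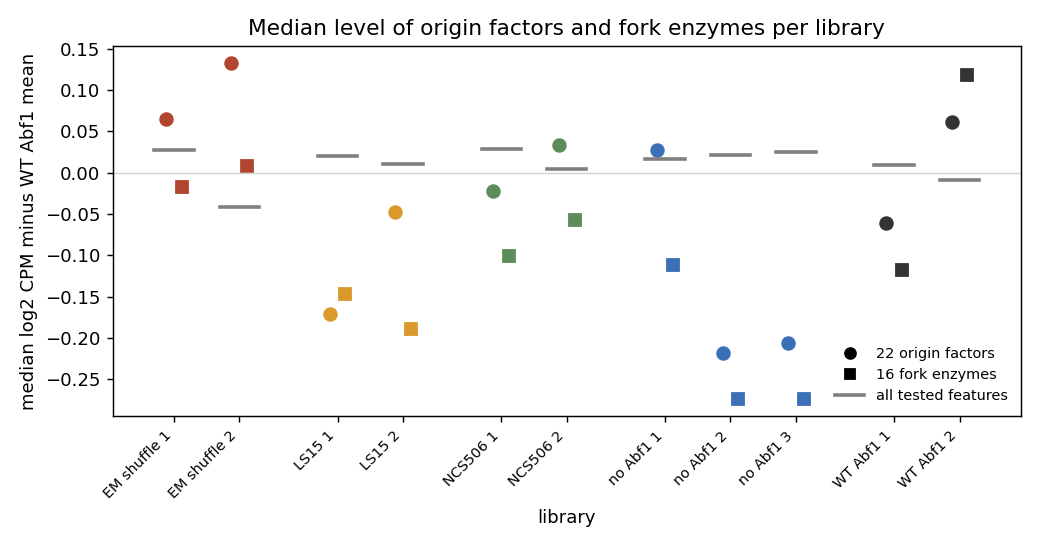
Median log2 CPM of the 22 origin factors (circles) and the 16 fork enzymes (squares) in each library, relative to the mean of the WT Abf1 libraries, with the median of all tested features as grey bars. The members spread from −0.27 to 0.13, and the WT Abf1 libraries alone span −0.12 to 0.12 for the fork enzymes.

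Other genes of the same pathway were set beside the members. Of 21 further replication genes, 4 were called lower in no Abf1 and none higher, with a median of −0.31, beside 13.7% of all features called lower. POL31, the second subunit of polymerase δ, whose window holds an Abf1 match, fell by 1.90 (SE 0.33, adjusted p = 0.00231) with 6 to 13 counts per library in no Abf1 and 45 to 49 in WT Abf1. POL32, the third subunit, fell by 0.88 (adjusted p = 0.0442). The catalytic POL3 at −0.58 did not pass in the fit of 11 libraries, so the 3 genes of 1 polymerase were called unequally in it. In EM shuffle against no Abf1 POL31 was higher by 1.51 (adjusted p = 0.00911) and POL32 by 1.03 (adjusted p = 0.0203). DPB4, a small subunit of polymerase ε, fell by 1.18 (adjusted p = 0.0154), beside POL2 at −0.26. Against WT Abf1, DPB4 was about as low in every construct. It stood at −1.27 in LS15 (adjusted p = 0.0326), −1.23 in EM shuffle (adjusted p = 0.0575) and −1.10 in NCS506 (adjusted p = 0.0938). CDC7, the kinase that activates the loaded helicase, fell by 0.99 (adjusted p = 0.0442) with 9 to 20 counts in no Abf1 and 30 to 41 in WT Abf1.

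Of 8 genes of deoxynucleotide synthesis, RNR2, a ribonucleotide reductase subunit, was called lower in no Abf1 (−0.63, adjusted p = 0.0107) and also in EM shuffle, LS15 and NCS506. The G1/S list of cyclins and MBF or SBF targets had 2 of 14 tested genes lower, the cyclins PCL1 (−1.30, adjusted p = 0.00582) and CLN1 (−0.82, adjusted p = 0.0394), and a median of −0.06. Of 10 G2/M genes all were below 0 in no Abf1 with a median of −0.46, and CLB2 (−1.30, adjusted p = 0.00586) and IQG1 (−0.48, adjusted p = 0.0485) passed. Of 10 M/G1 genes the daughter-cell genes CTS1 (0.90, adjusted p = 0.00597) and DSE1 (0.74, adjusted p = 0.0208) rose, and the median was 0.245. Over all features, 23.4% were called in no Abf1 in either direction and 13.7% were called lower, and these list counts were not tested against those shares. The part of cell-cycle position in the values of the replication genes was not tested.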

How the data were processed

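Per the labels, total RNA was made into directional libraries, and the submitters' processing notes name STAR, RSEM, sacCer3 and R64-1-1. The authors deposited, per library, whole-number counts without normalization and TPM values for 6834 features. Whether counting used strand is not given in the sources used here, and no member overlaps another annotated gene. Feature IDs matched the RefSeq R64 annotation for 5991 features and did not for 843.

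From the counts, 1 model of 11 libraries and 5 conditions was fitted (edgeR 4.0.16, R 4.3.3), with the filterByExpr filter, TMM scaling, the quasi-likelihood F-test and Benjamini-Hochberg adjustment over 5456 features at a threshold of 0.05. All 38 members passed the filter. The common biological coefficient of variation was 0.171, and a prior count of 2 entered log2 CPM. The alternatives tried were DESeq2 1.42.0, limma 3.58.1 on log2(TPM + 1) and log2(TPM + 0.1), a minimum of 10 counts, no filter, only the groups compared, each library left out, and a replicate block. Protein-coding genes alone were added after seeing the data. Scripts were tested on simulated data. Python 3.11.15 with pandas 2.3.3 searched promoters, and matplotlib 3.10.9 drew the plots.

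The rule for the members uses no measured value, but the members and lists were chosen with earlier results of these data known. Values in full are given for members called in a comparison, for the member of each other role with the largest change in no Abf1, and for members with an Abf1 match. The chi-square per degree of freedom between replicate counts, near 1 for sampling noise alone, was 23.5 in WT Abf1 and 26.7 in EM shuffle. It was 6.28 in LS15, 6.97 in NCS506 and 1.25 to 2.09 between the no Abf1 libraries. The fit shares 1 estimate of spread per gene over these unequal conditions.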

Additional observations from a re-analysis of the deposited data

How the results depend on the processing

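The number of members called in no Abf1 against WT Abf1, 1 of 38, was 2 with at least 10 counts in every library, 2 with no filter, 2 with protein-coding nuclear genes only (added after seeing the data), 5 with only the groups compared, and 0 in limma on log2(TPM + 1) and on log2(TPM + 0.1). The shares of all features were 22.9%, 19.8%, 24.4%, 32.7%, 0.843% and 3.78% in these fits. Leaving out each library gave 0 to 3, beside 10.2% to 30.2%. MCM2 crossed the threshold in the 4 fits that gave 2 or 5. POL3, POL30 and RFA1 crossed it only in the fit that gave 5. In LS15 against WT Abf1 the count of 2 became 1 in DESeq2, 0 with only the groups compared and 0 on both TPM scales, and leaving out each library gave 0 to 3. The shares of all features were 11.8%, 0.0188%, 0% and 0.0367%, and 0.0542% to 19.7% with a library left out. In EM shuffle against WT Abf1 the count of 0 became 25 on log2(TPM + 1) and 23 on log2(TPM + 0.1), in NCS506 against WT Abf1 19 and 16, in NCS506 against no Abf1 34 and 34, and in EM shuffle against no Abf1 37 and 36 in place of 1. The shares of all features called on the TPM scales, in the same order, were 55.2% and 52.1%, 48.7% and 47%, 75% and 74.8%, and 72.6% and 71.2%. On these scales the median of all features moved too, by 0.56 to 1.07. EM shuffle against no Abf1 gave 0 in DESeq2, beside 19.9% of all features, and 0 to 4 when each library was left out, beside 9.28% to 31.2%, with 4 without EM shuffle replicate 1.

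The replicate block, fitted on the 9 libraries with a number, left 0 members in EM shuffle against no Abf1 (RFC3 at 0.65, adjusted p = 0.0849), beside 15.9% of all features. The deviations of same-numbered libraries correlated at 0.18 to 0.37 between constructs and at −0.13 to −0.08 with no Abf1, so not every pair was over 0.1 and the numbers were not taken to pair the samples. Between the constructs alone they were all above 0.1, and the block changed no other count of members against no Abf1.

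PSF1 in no Abf1 ranged from −0.076 to 0.38 when each library was left out, the value below 0 being that without no Abf1 replicate 2. Of 288 values of named members under the alternatives, 247 kept their direction and side of the threshold, 27 no longer passed, 13 newly passed and 1 reversed. The medians of origin factors and fork enzymes moved by less than the spread between libraries. Depth limits the genes with under 30 counts in a library, such as CDC6, SLD5 and PSF3, most.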
